A study of Mus musculus with 8 samples.

Results

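Glucose entry and lactose precursor genes are the 7 genes followed here: Slc2a1, Slc50a1, Hk1, Hk2, Ugp2, Slc35a2 and B4galt1. They were chosen by function, from glucose transport through hexose phosphorylation and UDP-galactose supply to the galactosyltransferase of lactose, and their probes were found through the transcript accession printed on the array. The choice was made with earlier results of these data known. They make up 7 of 18749 genes with a matched probe and 7 of the 14137 genes tested, and all 7 were well above background on all 8 arrays. The samples were whole mammary glands of female mice on the C57/Bl6 background at lactation day 1, from 4 wild-type (WT) dams and 4 dams lacking Th-POK (KO). Th-POK, encoded by Zbtb7b, is a zinc finger transcription factor known for directing CD4 T cell development, and the comparison asks which genes of the lactating gland differ without it. The mice lacked Th-POK in all tissues, not in the mammary epithelium alone, and the dams were age-matched. Total RNA of each gland was labelled with Cy3 and hybridized to an Agilent one-colour mouse array of its own.

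Lactose is the main sugar and osmolyte of milk, and the mammary secretory cell makes it in the Golgi from glucose and UDP-galactose. Glucose enters the cell mainly through GLUT1 and has to reach the Golgi lumen, while another portion is phosphorylated by hexokinase and turned into UDP-glucose and then UDP-galactose, which is carried into the Golgi by a dedicated transporter. There the galactosyltransferase B4GALT1, with α-lactalbumin as its partner, joins both sugars.

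The targeted gene was the first check of the labels. Zbtb7b gave log2 signals of 9.90, 10.42, 10.13 and 10.23 in WT and was not well above background on any of the 4 KO arrays, at least 81.5-fold lower (adjusted p = 5.71e-09, limma). Milk protein genes marked all 8 glands as lactating: of 8 genes tested, 0 passed the adjusted threshold, and their mean log2 signal was 17.06 to 17.39 in WT and 16.93 to 17.47 in KO. Quantile normalization gives every array the same set of values, so a difference in the brightest of these genes can hardly show. Wap stood at 18.475 on KO 1, 3 and 4 alike. Between 66.8% and 75.3% of spots were well above background per array, and no spot was saturated. The 4 WT arrays shared a slide and the 4 KO arrays shared a different one, and so genotype and slide cannot be told apart for any gene given here.

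Regulatory sequence is shown for the gene that passed the test, for a hexokinase gene with the same lowest and highest arrays, and for the galactosyltransferase, as the 250 bases before the transcript start on the strand of the gene (RefSeq, GRCm38.p6). Capitals mark the GC box GGGCGG on either strand (CCGCCC on the opposite one) and TTCNNNGAA, the palindrome that STAT factors bind. The windows are chr4:119108495-119108744 on the plus strand for Slc2a1, chr6:82774455-82774704 on the minus strand for Hk2 and chr4:40853985-40854234 on the minus strand for B4galt1.
Slc2a1: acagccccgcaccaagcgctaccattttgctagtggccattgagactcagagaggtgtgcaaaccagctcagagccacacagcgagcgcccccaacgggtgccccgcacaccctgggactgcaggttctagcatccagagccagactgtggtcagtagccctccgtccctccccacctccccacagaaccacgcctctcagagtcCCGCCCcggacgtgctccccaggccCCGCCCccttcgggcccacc
Hk2: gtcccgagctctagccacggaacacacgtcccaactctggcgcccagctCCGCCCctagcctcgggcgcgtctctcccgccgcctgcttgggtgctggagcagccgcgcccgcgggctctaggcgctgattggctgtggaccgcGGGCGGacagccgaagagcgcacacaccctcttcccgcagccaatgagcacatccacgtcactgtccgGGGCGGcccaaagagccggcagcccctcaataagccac
B4galt1: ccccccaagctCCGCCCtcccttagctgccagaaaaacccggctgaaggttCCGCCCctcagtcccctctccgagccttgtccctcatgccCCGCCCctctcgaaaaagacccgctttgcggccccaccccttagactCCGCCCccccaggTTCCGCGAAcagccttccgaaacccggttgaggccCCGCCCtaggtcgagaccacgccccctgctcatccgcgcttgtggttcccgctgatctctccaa
The Slc2a1 window held 2 GC boxes, at 45 to 40 and 20 to 15 bases before the start, the Hk2 window held 3 and the B4galt1 window 5. A GC box stood in 32.7% of all 32851 RefSeq promoter windows of this length and in 5 of the 9 windows of the 7 genes (Hk1 and Ugp2 have 2 starts each), and the windows of Slc50a1, Hk1 and Slc35a2 had none. G and C made up 49.6% to 73.6% of the bases in these 9 windows, against a median of 52.4% over all windows. The GC box shares were not adjusted for this. The letters TTCNNNGAA were found once, in B4galt1 as TTCCGCGAA at 99 to 91 bases before the start, against 7.02% of all windows. The CCAAT box, searched as CCAAT on both strands, was found in Hk2 and in 1 window of Ugp2, against 33.8% of all windows. The E-box CACGTG (6.02% of all windows), TATAAA (12.4%) and TCACNCCAC, a form of the sterol regulatory element (1.05%), were found in none of the 9 windows. The letters CACGTG and TTCNNNGAA read the same on both strands, and the GC boxes and TTCCGCGAA marked here did not overlap.

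Of the 7 genes, Slc2a1 was lower in KO glands at an adjusted p under 0.05 and none was higher. Among all genes tested 16.5% passed that threshold, 8.96% lower in KO and 7.53% higher, so 1 of 7 was near the background. In the fit that blocks on the replicate number 3 of the 7 passed (Slc2a1, Slc50a1 and Hk2, all lower), beside 19.5% of all genes, 10.8% of them lower in KO. On average 6 of the 7 were lower in KO and 1, Ugp2, was higher, with a median log2 difference of -0.56 against -0.02 over all genes tested. Because the genes were chosen with earlier results known, this median is a description only. At an unadjusted p under 0.05, 3 of the 7 passed (Slc2a1, Slc50a1 and Hk2), beside 5136 of the 14137 genes. The KO and WT arrays did not overlap in 1 of the 7 genes, and in 24.1% of all genes. In bulk RNA of a whole gland, fewer cells of a type and less RNA per cell cannot be told apart.

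**Figure D1:**
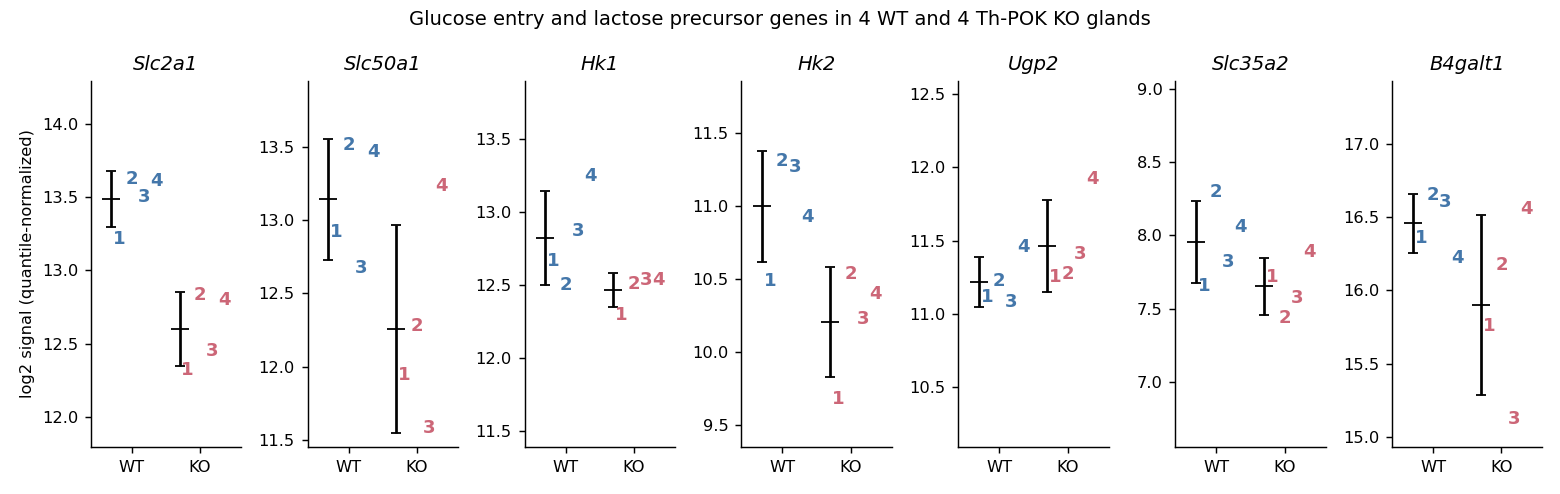
Quantile-normalized log2 signal of the 7 genes (y axis, 1 panel per gene, all panels spanning the same log2 range) in WT and KO glands; each digit is the replicate number of 1 array, and the bar left of the digits is the mean ± SD of 4 arrays. WT and KO arrays separate in Slc2a1 and overlap in the other 6 genes.

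Slc2a1 encodes GLUT1, the main glucose carrier of the mammary secretory cell. Its log2 signal was 13.22, 13.63, 13.50 and 13.61 in WT 1 to 4 and 12.32, 12.83, 12.45 and 12.80 in KO 1 to 4. Every KO array lay below every WT array, and in both genotypes replicate 1 was the lowest. The difference was -0.89 on the log2 scale (SE 0.15, 95% interval -1.24 to -0.54, n = 4 and 4), a 1.85-fold lower signal in KO, with an adjusted p of 0.0140 in limma. Arrays that share a replicate number deviated together from their genotype means, and as pairs they differed by -0.89, -0.79, -1.05 and -0.82. The array carried 1 probe for Slc2a1. Of all genes tested, 5.01% had a difference as low or lower. Its adjusted p stayed under 0.05 with each of the 8 arrays left out (adjusted p 0.0109 to 0.0474) and under each of the other settings run (0.0108 to 0.0347).

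Slc50a1 encodes SWEET1, a sugar carrier of the Golgi and plasma membranes proposed to bring glucose into the Golgi lumen. It measured 12.92, 13.52, 12.67 and 13.47 in WT and 11.94, 12.28, 11.58 and 13.23 in KO. KO 1, 2 and 3 lay below every WT array, whereas KO 4 lay within the WT range. The mean difference, -0.89, was close to that of Slc2a1, but with an SE of 0.35 (95% interval -1.69 to -0.08), since the SD was 0.41 in WT and 0.71 in KO, and the adjusted p was 0.110. KO was the lower array in all 4 same-numbered pairs, by -0.98, -1.24, -1.09 and -0.24. Blocking on the replicate number gave an adjusted p of 0.0313, and without KO 4 the difference was -1.21 with an adjusted p of 0.0270. Leaving out any of the other 7 arrays gave adjusted p-values of 0.114 to 0.247.

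Slc50a1 lies on the same chromosome as Zbtb7b, with 10 genes of the RefSeq table between them, of which 6 are protein-coding and 4 were tested. Dcst1, which encodes a membrane protein, was higher in KO by 3.14 on the log2 scale (SE 0.14, adjusted p = 2.58e-05), and 0 of the 4 were lower. The other 3 did not pass the threshold: Efna1 differed by 0.86 (adjusted p = 0.0549), Efna4 by 0.36 (adjusted p = 0.0566) and Adam15 by -0.11 (adjusted p = 0.528). Efna1 and Efna4 encode ephrin ligands and Adam15 a membrane metalloproteinase. The KO arrays of Efna1, Efna4 and Dcst1 lay above every WT array. Whether the altered Zbtb7b allele or the chromosome around it bears on the Slc50a1 signal was not tested.

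The hexokinases trap glucose in the cell as glucose 6-phosphate, Hk1 as the broadly expressed form and Hk2 as the form that insulin and growth signals regulate. Hk2 measured 10.49, 11.31, 11.27 and 10.92 in WT and 9.68, 10.53, 10.22 and 10.40 in KO. The genotypes overlapped only through WT 1, the lowest WT array, which lay below KO 2. The difference was -0.79 (SE 0.24, 95% interval -1.33 to -0.25), a 1.73-fold lower signal, and its adjusted p of 0.0542 did not pass. All 4 same-numbered pairs were lower in KO, by -0.81, -0.78, -1.04 and -0.52, and blocking on the replicate number gave an adjusted p of 0.0172. Without WT 1 the difference was -0.96 (adjusted p = 0.0250), and without any other array the adjusted p was 0.0635 to 0.138. The arrays of Hk2 followed those of Slc2a1 at the extremes: WT 1 and KO 1 were the lowest arrays of their genotypes, and WT 2 and KO 2 the highest, in both genes.

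Hk1 differed less. Its brightest probe gave 12.67, 12.50, 12.87 and 13.24 in WT and 12.29, 12.51, 12.54 and 12.54 in KO. The highest value was WT 4, and KO 2, 3 and 4 lay just above WT 2. The difference was -0.35 (SE 0.16, 95% interval -0.72 to 0.02, adjusted p = 0.158), and it was -0.21 without WT 4 and -0.46 without WT 2, past the threshold in neither fit. The array carried 6 probes for Hk1, and the 5 that passed the background filter were all lower in KO on average, between -0.46 and -0.12, with 0 of them past the threshold in the limma fit over all probes. Slc50a1 and Hk2 were also measured by 1 probe each.

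Ugp2 encodes UDP-glucose pyrophosphorylase, which makes UDP-glucose, and it was the only one of the 7 with a higher mean in KO. It measured 11.12, 11.22, 11.08 and 11.46 in WT and 11.25, 11.27, 11.41 and 11.92 in KO. The genotypes overlapped, and KO 4 was the highest array. The difference was 0.24 (SE 0.17, 95% interval -0.14 to 0.63, adjusted p = 0.329) and 0.09 without KO 4. Its second probe differed by 0.39 (SE 0.14, adjusted p over all probes 0.0943). KO was above WT in all 4 same-numbered pairs, and the blocked fit did not pass either (adjusted p = 0.170).

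Slc35a2 encodes the transporter that brings UDP-galactose into the Golgi. Its brighter probe gave 7.66, 8.30, 7.82 and 8.06 in WT and 7.71, 7.44, 7.57 and 7.89 in KO, a difference of -0.30 (SE 0.16, 95% interval -0.68 to 0.07, adjusted p = 0.214). Its other probe gave 6.25, 6.91, 6.56 and 6.93 in WT and 5.75, 5.79, 5.86 and 6.31 in KO, a difference of -0.74 (SE 0.19), and passed the threshold over all probes (adjusted p = 0.0364). The genotypes overlapped on both probes, on the second only because KO 4 lay just above WT 1. The probes thus disagreed on the call, and the mean of both did not pass.

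B4galt1 encodes the galactosyltransferase that forms lactose. It measured 16.36, 16.65, 16.60 and 16.22 in WT and 15.76, 16.18, 15.12 and 16.56 in KO. The WT arrays lay close together (SD 0.20), whereas the KO arrays spread widely (SD 0.62): KO 1, 2 and 3 were below every WT array and KO 4 was among the WT values. The difference was -0.56 (SE 0.28, 95% interval -1.20 to 0.09, adjusted p = 0.191), and it ranged from -0.30 without KO 3 to -0.78 without KO 4, past the threshold in neither fit. The other settings run gave -0.77 (75th percentile scaling) to -0.56, none past the threshold. All 3 probes were lower in KO on average, by -0.56, -0.62 and -0.87, and 0 of them passed over all probes. In the same-numbered pairs KO was lower by -0.60, -0.48 and -1.48 in pairs 1, 2 and 3 and higher by 0.34 in pair 4. That interval includes both no difference and a difference larger than that of Slc2a1.

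**Figure D2:**
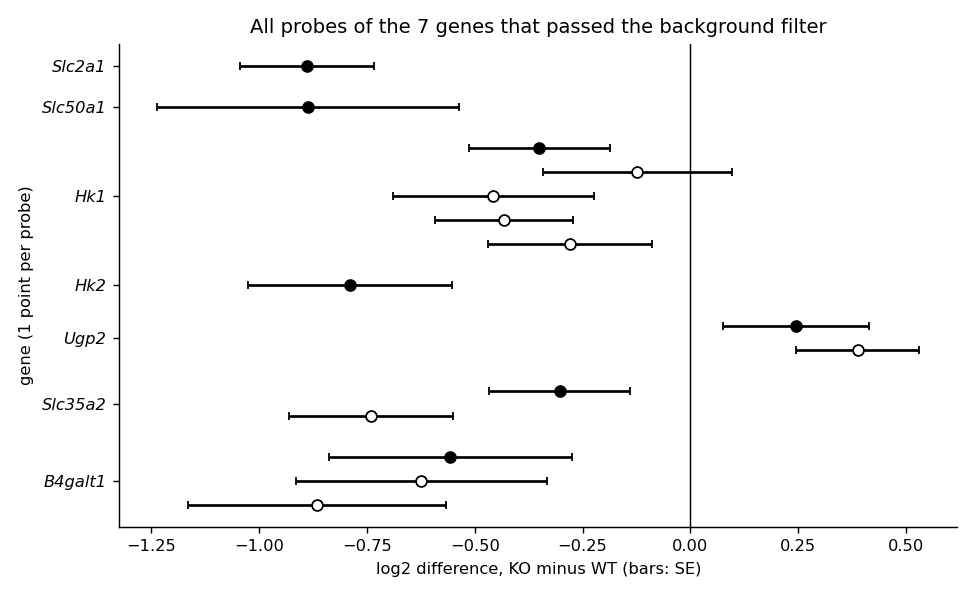
Log2 difference, KO minus WT, for each of the 15 probes of the 7 genes that passed the background filter (x axis; bars are the SE of limma over all probes), with the probe that represents the gene filled. All probes of Hk1, Slc35a2 and B4galt1 lie below 0 and both probes of Ugp2 above 0.

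KO arrays differed from each other across the 7 genes. KO 4 was the highest KO array in 4 genes (Slc50a1, Ugp2, Slc35a2 and B4galt1) and the lowest in 0, whereas KO 1 was the lowest in 4 genes (Slc2a1, Hk1, Hk2 and Ugp2). KO 1, 2 and 3 each lay below the WT mean in 6 of the 7 genes and KO 4 in 4. In Slc2a1 and Hk2, by contrast, KO 4 lay -0.69 and -0.60 from the WT mean, close to KO 2 at -0.66 and -0.46.

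**Figure D3:**
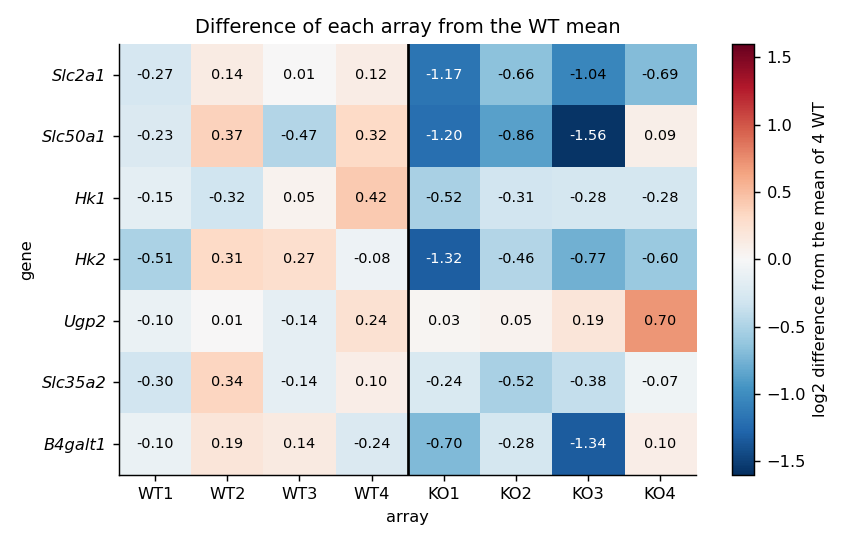
Difference of each array (x axis) from the mean of the 4 WT arrays, on the log2 scale, for each of the 7 genes (y axis); blue is below and red above the WT mean, and the number is the value. KO 4 is 0.09 and 0.10 above the WT mean in Slc50a1 and B4galt1, where KO 3 is -1.56 and -1.34 from it.

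**Figure D4:**
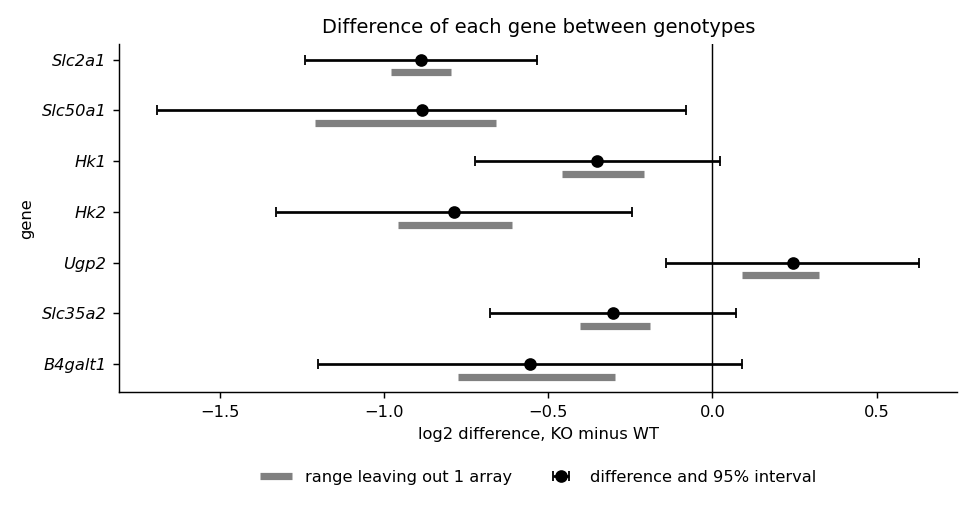
Log2 difference, KO minus WT, of the 7 genes with its 95% interval from limma (points and thin lines, n = 4 and 4) and the range of the difference when each of the 8 arrays is left out in turn (grey bars). The intervals of Slc2a1, Slc50a1 and Hk2 lie below 0 before adjustment for the number of genes, and no grey bar crosses 0.

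Other genes of the same route were taken from 6 lists, of which 62 genes were tested and 8 were lower and 3 higher in KO, with a median log2 difference of -0.06. These 11 of 62 were near the 16.5% of all genes tested that passed (8.96% lower and 7.53% higher). Among hexose transporters other than the members, 13 were tested. Slc2a6, which encodes GLUT6, fell by 0.96 (SE 0.17, adjusted p = 0.0139), and by 0.60 with normexp background correction (adjusted p = 0.0149). It measured 7.04, 7.49, 7.32 and 7.46 in WT and 6.75, 6.34, 6.07 and 6.30 in KO, with no overlap. Slc5a4b, of the sodium-glucose cotransporter family, fell by 1.00 (adjusted p = 0.0200), with 1 of 4 KO arrays well above background, so that the size of its difference is poorly measured. With normexp its difference was -0.14 (adjusted p = 0.267). Slc5a9, a sodium-dependent sugar transporter, was 2.90-fold higher in KO (log2 difference 1.54, SE 0.34, adjusted p = 0.0236), with values of 9.76, 8.60, 9.51 and 8.84 in WT and 11.16, 10.60, 11.13 and 9.96 in KO. The difference of Slc2a4, which encodes the insulin-responsive GLUT4, was 0.63 (SE 0.31, adjusted p = 0.181), and blocking on the replicate number gave an adjusted p of 0.0313. Slc5a1, which encodes the cotransporter SGLT1, differed by -0.37 (adjusted p = 0.495), and by -0.63 to -0.16 with an array left out.

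A list around glucose phosphorylation, with genes that regulate or reverse that step included, gave 0 of 6 further genes past the threshold. Of these, 1 had an unadjusted p under 0.05. Hk3, the hexokinase of myeloid cells, differed by -0.10 (adjusted p = 0.836). The genes that make and interconvert UDP-sugars gave 0 of 8 past the threshold, with 1 at an unadjusted p under 0.05. There Galk1, the galactokinase, differed by 0.29 (SE 0.11, adjusted p = 0.0862), with all KO arrays above all WT arrays. The galactose gene Galt differed by 0.12 (adjusted p = 0.409) and Galk2 by -0.29 (adjusted p = 0.287, and -0.39 to -0.16 with an array left out). The phosphoglucomutase genes differed by 0.11 for Pgm1 (adjusted p = 0.659) and -0.33 for Pgm2 (adjusted p = 0.198), and without KO 4 Pgm2 differed by -0.49 with an adjusted p of 0.0324.

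Slc35 family genes other than Slc35a2 gave 3 of 11 lower and 0 higher in KO, with a median log2 difference of -0.25. The list follows the family name, and not all of its genes, Slc35b1 for one, are known to carry nucleotide sugars. Of all genes tested, 8.96% were lower and 7.53% higher. Slc35a4 fell by 0.82 (SE 0.14, adjusted p = 0.0137), from 9.96, 10.40, 10.40 and 9.90 in WT to 9.33, 9.38, 9.25 and 9.40 in KO. Slc35b1, which encodes a carrier of the endoplasmic reticulum that exchanges ATP for ADP, fell by 0.58 (adjusted p = 0.0381). Slc35c2, a Golgi carrier linked to fucosylation, fell by 0.84 (adjusted p = 0.0457). 
The partner of B4GALT1, α-lactalbumin, is encoded by Lalba, which measured 14.97, 15.71, 15.39 and 15.74 in WT and 14.67, 15.23, 14.71 and 15.41 in KO. Its difference of -0.45 (SE 0.23, adjusted p = 0.197) did not pass, KO was lower in all 4 same-numbered pairs, and blocking on the replicate number gave an adjusted p of 0.0444. Of the other galactosyltransferases, B4galt7, which takes part in making the linker of proteoglycans, fell by 0.73 (SE 0.17, adjusted p = 0.0272, and 0.0515 with the block). B4galt3 was higher by 0.60 (SE 0.14, adjusted p = 0.0252). Among 18 regulators of glucose uptake 2 were lower and 1 higher, beside 8.96% and 7.53% of all genes tested. Akt1, a kinase downstream of insulin, fell by 0.73 (SE 0.15, adjusted p = 0.0206), and Mlx, the partner of the glucose-sensing factors ChREBP and MondoA, fell by 0.67 (SE 0.18, adjusted p = 0.0403). Arrdc4, an arrestin-like gene known to limit glucose uptake, was 2.81-fold higher (log2 difference 1.49, SE 0.31, adjusted p = 0.0214), whereas its relative Txnip differed by 0.24 (adjusted p = 0.619) and by 0.0028 without WT 2. Stat5a, a prolactin-activated factor, differed by -0.72 (SE 0.23, adjusted p = 0.0632), and blocking on the replicate number gave an adjusted p of 0.0404.

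**Figure D5:**
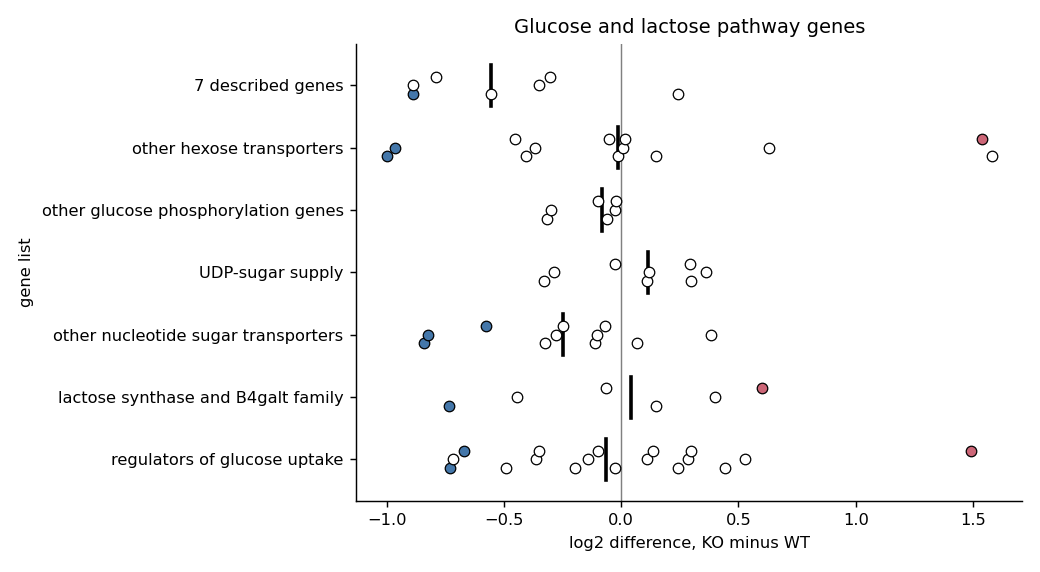
Log2 difference, KO minus WT (x axis), of every tested gene of the 7 described genes and the 6 pathway lists (y axis); filled points passed an adjusted p under 0.05 (blue lower, red higher in KO) and the black bar is the list's median. The 7 genes have the lowest median of the lists, -0.56. All lists were chosen with earlier results of these data known, so their order is a description only.

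Of the 11 pathway genes past the threshold, Slc2a6 and Slc35a4 passed with every array left out (adjusted p 0.0109 to 0.0431 and 0.0121 to 0.0468). The other 9 missed it without KO 1 and without KO 3, so that 2 passed in each of those fits, whereas 13 passed without WT 1 and 13 without KO 4. The share of all genes tested that passed was 5.35% without KO 1, 3.64% without KO 3, 21.7% without WT 1 and 16.1% without KO 4. The call was lost without 2 of the 8 arrays for Slc5a4b, 3 for Akt1, 4 for Slc5a9, B4galt3 and Arrdc4, 5 for B4galt7, 6 for Slc35b1 and Mlx and 7 for Slc35c2. The highest adjusted p with an array left out was 0.0618 for Slc5a4b (KO 3), 0.0694 for Slc5a9 (KO 3), 0.101 for Slc35b1 (KO 3), 0.121 for Slc35c2 (WT 2), 0.0753 for B4galt3 (KO 3), 0.0691 for B4galt7 (KO 3), 0.0612 for Akt1 (KO 3), 0.0618 for Arrdc4 (KO 3) and 0.103 for Mlx (WT 2).

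Some markers of cell types in the gland passed the threshold, beside 16.5% of all genes tested (8.96% lower and 7.53% higher in KO). Their part in the values above was not tested. Of 9 luminal epithelial markers, 4 were higher (Krt18, Epcam, Cdh1 and Cldn3) and 1 lower (Muc1) in KO, with a mean log2 signal of 13.63 to 14.11 in WT and 14.19 to 14.32 in KO. Milk protein genes had a median difference of -0.003, a size that quantile normalization limits for the brightest of them. Of 8 neutrophil markers 3 were higher (Camp, Ngp and Ltf) and 0 lower. Camp and Ngp, well above background on 0 of 4 WT arrays, passed the background filter only through KO. They were at least 8.54-fold and 7.11-fold higher in KO, and for this reason no mean of the neutrophil list is given. Adipocyte markers, which include Slc2a4, were higher for 2 of 9 and lower for 0, with a mean of 12.52 to 13.27 in WT and 13.14 to 13.39 in KO. T cell markers were lower for 2 of 7 (6.14 to 7.27 in WT, 6.18 to 6.48 in KO), fibroblast markers higher for 1 of 7 and basal epithelial markers lower for 1 of 8. At an unadjusted p under 0.05 in limma were 7 of 9 luminal, 4 of 8 neutrophil, 3 of 9 adipocyte and 5 of 7 fibroblast markers. For T cell, basal epithelial and B cell markers these were 2 of 7, 2 of 8 and 2 of 5, beside 5136 of the 14137 genes tested. Macrophage and endothelial lists had 0 genes past the threshold in limma, with 0 and 1 at an unadjusted p under 0.05, and 1 of 5 B cell markers was higher.

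The genes whose signal followed each member most closely were found by Pearson's r over the 8 arrays among the 14137 genes tested, as a description. Since genotype is part of these 8 values, a gene that differs between genotypes in the same direction scores high. Slc2a1 was followed by Ap4s1 (r = 0.993), Xrcc6 (0.991) and Uros (0.989), all 3 lower in KO past the threshold. Slc50a1 was followed by Mamld1 (0.993), Ascc3 (0.991) and Vpreb2 (0.984), none past it. Hk2 was followed by Mcrip2 (0.979), Cluh (0.978) and Rnf41 (0.972), all 3 lower past the threshold. Closest to Hk1 were Syt3, Mtor and Clca2 (0.943 to 0.929), to Ugp2 Pcmt1, Rnf14 and Cdkl2 (0.970 to 0.961), to Slc35a2 1700016K19Rik, Med18 and Ror2 (0.998 to 0.986) and to B4galt1 Tmem259, Dhrsx and Ndn (0.948 to 0.941).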

How the data were processed

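Gene expression was measured in mammary glands of 4 WT and 4 KO dams on 8 one-colour Agilent arrays, and genotypes and replicate numbers came from the sample titles. The authors deposited scanner output of Agilent Feature Extraction 10.7 with background-subtracted, detrended intensity values per spot with no scaling from one array to the next. A second deposited file held log2 values that the authors had quantile-normalized in GeneSpring; it was used only as an alternative and correlated with the same array's intensities at r above 0.99.

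Non-control, non-outlier spots (64 to 100 outliers per array) were put on the log2 scale, quantile-normalized between arrays with limma 3.58.1 in R 4.3.3 and averaged per probe (41174 probes). Of these, 27479 probes matched 18749 symbols through the accession and RefSeq gene table (GRCm38.p6). A probe had to be well above background on every array of 1 or both genotypes, the brightest probe represented a gene, and limma was run on 14137 genes with adjustment by Benjamini-Hochberg at 0.05. The number of arrays limits the precision. The fits were tested on simulated data. A bound for a gene at background in 1 genotype used, per array, the lowest signal well above background or the probe's own, whichever was higher.

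Deviations from the genotype means correlated between arrays of the same replicate number at r = 0.219, 0.165, 0.304 and 0.283, against a mean of -0.0788 for different numbers. The deviations cancel out within each genotype, so the mean for different numbers largely follows from the others and is not separate evidence. The methods do not say what same-numbered dams share. The main fit held genotype only and was unpaired. On the ground of the same-number correlations, which come from these same data, the arrays were paired only in the replicate block, an alternative. The blocked value is given where it changes the call of a member or pathway gene.

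Alternatives were scaling to the 75th percentile, normexp (offset 50, on median spot and background signals, since the files held no mean spot signal), no background filter, the mean of a gene's probes, the authors' log2 table, the methods' t-test, a trended and robust limma fit, the replicate block, and each array left out. The members and all gene lists were chosen with earlier results of these data known. Named genes are the 7 members, Zbtb7b, partners of theirs, every called gene of a pathway list (up to 5), the genes between Slc50a1 and Zbtb7b, and the 3 genes most like each member. Efna1, Efna4, Adam15, Stat5a and the marker genes named were added after their values were seen. Promoter windows came from RefSeq, and the array's probe sequences and the proteins were not used here. One gene of the pathway lists is not reported here.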

Additional observations from a re-analysis of the deposited data

Results flagged for a closer look

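In 4 of 58 sets of 4 arrays of a genotype, 1 array stood apart from the other 3 by Dixon's criterion, which chance meets in about 1 of 20 such sets. Hk1 in KO 1 had a log2 signal of 12.29, below the 12.51 to 12.54 of the other KO arrays. Slc35b1 in KO 4 stood at 13.79, above 13.40 to 13.44. Slc35c2 in WT 1 stood at 11.38, below 12.21 to 12.34. B4galt7 in KO 2 stood at 6.91, below 7.26 to 7.33.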

How the results depend on the processing

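Slc2a1 kept its direction and its call in each of the 16 alternatives run, and no result past the threshold changed direction in any of them. Of the 7 genes, 1 passed in the main fit, 2 with normexp and with the trended and robust fit, 3 with the replicate block, and 1 to 2 with an array left out (2 without WT 1 or without KO 4). Over all genes 16.5% passed in the main fit, 16.0% with normexp, 17.3% with the trended and robust fit, 19.5% with the block and 3.64% to 21.7% with an array left out. Slc50a1 passed with the block (-0.89, adjusted p = 0.0313), and with an array left out its difference was -1.21 to -0.66. Hk2 passed with normexp (-0.77, adjusted p = 0.0484), with the trended and robust fit (-0.79, adjusted p = 0.0482) and with the block (-0.79, adjusted p = 0.0172), and with an array left out its difference was -0.96 to -0.61. Pairing by the block changed no other call among the 7 genes. Over all genes, 2331 passed in the main fit, 1389 in the methods' t-test and 515 (without KO 3) to 3070 (without WT 1) with an array left out. Of 62 other pathway genes, 11 passed in the main fit, 5 in the t-test and 2 to 13 with an array left out. The cause of these changes was not tested. Hk3, which did not pass, had a difference of -0.30 to 0.08 with an array left out. The share of lower calls over all genes was 54.3% in the main fit, 58.9% after scaling to the 75th percentile, and 48.3% to 55.8% with an array left out (48.3% without KO 3 and 49.5% without WT 2). All 7 genes were well above background on all 8 arrays.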
